A study of Saccharomyces cerevisiae with 16 samples.

Results

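The 10 genes described here encode the core of cytoplasmic 5′-3′ mRNA decay in budding yeast. They were taken by name from a deposited gene table as the rows of XRN1, DCP2, DCP1, DHH1, PAT1, LSM1, EDC3, NAM7, NMD2 and UPF3. All 10 were found among the 5696 host rows of the table, and all 10 had enough reads to be tested.

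In this pathway an mRNA that has lost most of its poly(A) tail is bound by Pat1 and the Lsm1-7 ring, joined by the helicase Dhh1 and the scaffold Edc3, and its cap is removed by Dcp2 with its activator Dcp1. The body, which now carries a 5′ phosphate, is digested by the exonuclease Xrn1. Nonsense-mediated decay (NMD) sends transcripts with a premature stop codon into the same route through the helicase Upf1, which yeast geneticists named NAM7, and its partners Upf2 (NMD2) and Upf3. The assay used here, HT-5PSeq, sequences RNA molecules with a 5′ phosphate that carry a poly(A) tail. These are mostly decay intermediates, so the values below are amounts of decay intermediates of the mRNAs of these genes, not total mRNA or protein.

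All cultures were BY4741, a haploid laboratory strain of mating type a, grown for 4 h at 30 °C without uracil to an OD600 of 0.7, and all carried a low copy plasmid. Of the 8 groups, all but the control carried an mCherry reporter under the RPS3 promoter, followed by the RPS3 terminator. In 6 groups that terminator was modified at 3 insertion sites of 9 bp, and the letters give the inserts in order: modHTH, modHNH, modNGG, modNAA, modNTN and modNNN. N is a random sequence, A the motif ATATTC, H the motif TTTCATTTC and T the motif TGTACAATA, while the sequence of G is not given in the labels. The last reporter plasmid had the unmodified terminator (WT). The control plasmid, labelled POT1-ccdB, had no reporter. By the labels, no group carries a change in a gene of the decay pathway itself.

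Each group had 2 libraries, 16 in all, and those with fewer than 1000 reads were left out. The 13 libraries used held 1070844 to 2939907 reads. The groups modHTH, modHNH and modNGG then rest on 1 library each, which is assumed to vary like the libraries of the other groups. The labels do not say whether replicate libraries derive from different cultures, and the p-values below then measure library-to-library spread that could be technical. Chromosomal URA3 and MET17 had 0 reads in all 13 libraries and LEU2 at most 2, while HIS3, a partial deletion in this strain, had at least 198. The a-type genes MFA1 and STE2 had at least 417 and 728 reads per library, against at most 7 for MF(ALPHA)1 and 20 for STE3 of the other mating type. Differences below are log2 fold changes from edgeR's quasi-likelihood test with group as the only term, adjusted by Benjamini-Hochberg over all 5268 host genes tested and called at an adjusted p under 0.05.

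The genes lie on 9 chromosomes, given here on the R64 build. Of the rows, 7 match a deposited transcript: DCP2 (YNL118C, chromosome XIV, 402485 to 405617), PAT1 (YCR077C, III, 250043 to 252670), LSM1 (YJL124C, X, 186911 to 188277), EDC3 (YEL015W, V, 126580 to 128450), NAM7 (YMR080C, XIII, 426270 to 429714), NMD2 (YHR077C, VIII, 252244 to 255817) and UPF3 (YGR072W, VII, 634255 to 635574). The rows of XRN1 (YGL173C, VII, 175527 to 180113), DCP1 (YOL149W, XV, 44938 to 45633) and DHH1 (YDL160C, IV, 170410 to 171930) are named tx0 and match none of the deposited transcripts used here, so RefSeq gene coordinates are given for them. The sources used here do not say what stretch a tx0 row covers. Of the 5696 host rows, 878 are of this kind, and they are set beside XRN1, DCP1 and DHH1 below. LSM1 shares 448 nt, 32.8% of its transcript, with MTC1 on the same strand, so its reads are uncertain. The other overlaps were at most 169 nt (DCP2 with NCS2, on opposite strands), and the sources used here do not say whether counting used strand.

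Levels are given as CPM, the reads of a gene per 1000000 reads of its library, on library sizes scaled with edgeR's TMM factors. Compared per kb of gene span (start to stop codon in RefSeq, introns included), LSM1, the subunit that sets the cytoplasmic Lsm ring apart from the nuclear one, was the highest of the 10, with a mean of 411 CPM per kb over the 13 libraries. EDC3 (133 CPM per kb), UPF3 (120.0 CPM per kb), DCP2 (110.4 CPM per kb) and XRN1 (90.1 CPM per kb) also lay above the median of 58.8 CPM per kb over 5210 host genes. PAT1 (48.9), NMD2 (40.1), NAM7 (25.7), DHH1 (21.7) and DCP1 (18.7 CPM per kb) lay below it. DCP1 and DHH1 are thus the members with the least data behind them, with 5 to 36 reads and 23 to 96 reads per library. The other 8 had at least 76 reads in every library used. Reads were counted per row, and a row can cover more than the gene span. The LSM1 transcript is 1367 nt long against a span of 519 nt, which raises its level per kb of span. For the tx0 rows XRN1, DCP1 and DHH1 the stretch covered is not known, so their places in this order are uncertain. Reverse transcription started from oligo(dT) only, so a level per kb need not follow abundance across genes of unlike length.

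**Figure D1:**
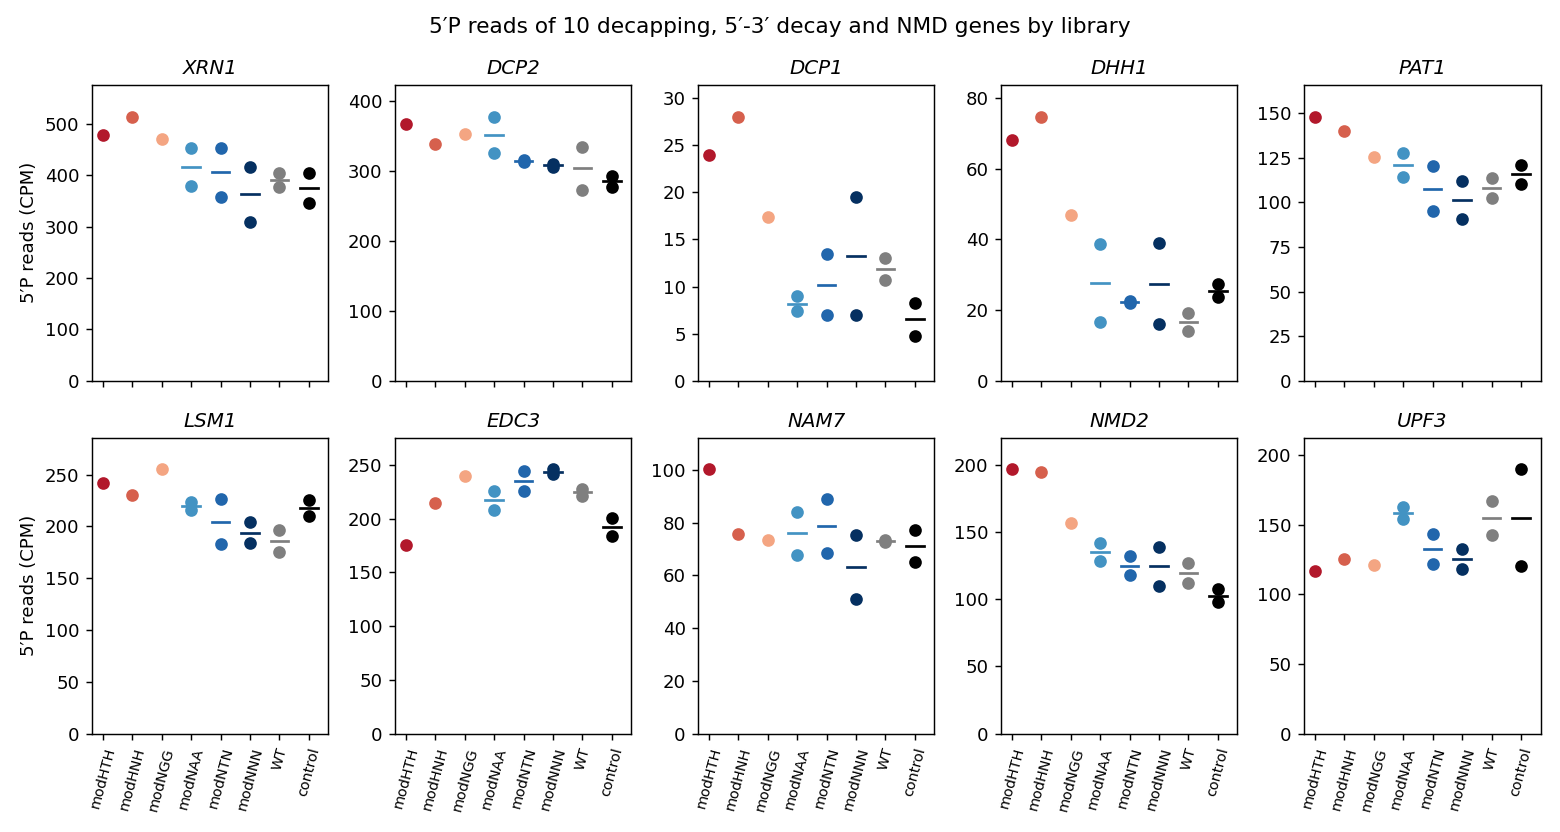
CPM of each gene (vertical axis, from 0) in every library used, by group (horizontal axis); points are libraries and bars the mean of a group with 2. The modHTH and modHNH libraries are the top 2 for DHH1, DCP1, PAT1, NMD2 and XRN1 and not for DCP2, LSM1, NAM7, EDC3 or UPF3.

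The first question was whether the members differed between the 8 groups at all. They were not called in the joint test of the 8 groups: 0 of 10 passed, beside 0.019% of all genes tested. At an unadjusted p under 0.05 there were 3 of 10, beside 19.2% of all genes in edgeR. They were DHH1 (edgeR adjusted p = 0.0752), NMD2 (edgeR adjusted p = 0.0879) and DCP1 (edgeR adjusted p = 0.146). DESeq2 called 1 member, NMD2 (adjusted p = 0.0383), but it gave 2304 genes no adjusted p. In edgeR, DHH1 passed with library totals in place of TMM (adjusted p = 0.0382), with no filter (0.0335), without the second WT library (0.0472) and without the first modNAA library (0.0429). Leaving out either modNNN library left that group a lone library. In both fits DCP1, DHH1 and NMD2 passed, but many more of all genes were called too than in the main fit. By group means, modHTH or modHNH was the highest of the 8 groups for 7 of 10 members, beside 33.8% of all genes. Both groups are single libraries, set here beside means of 2.

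The second comparison set the 6 modified terminators against WT. Of the 10 members, 1 was higher, DHH1, and 0 were lower, beside 8.35% of all genes called in either direction, 4.63% called higher and 3.72% lower. That count is near the background. At an unadjusted p under 0.05 there were 2 members, DHH1 and NMD2, beside 27.8% of all genes. The median log2 fold change was 0.18 over the members and −0.02 over all genes, and 8 of 10 members lay above 0 beside 47.2% of all genes. In 0 of 10 members did all modified libraries lie above or below both WT libraries, beside 3.44% of all genes above and 4.42% below.

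DHH1, the DEAD-box helicase that represses translation and promotes decapping, carries this call. It stood at 68.3 CPM in modHTH, 74.8 CPM in modHNH and 47.0 CPM in modNGG. The groups with 2 libraries gave 38.6 and 16.7 CPM in modNAA, 22.1 and 22.7 CPM in modNTN and 39.0 and 15.9 CPM in modNNN, against 19.3 and 14.0 CPM in WT. The 3 lone libraries were the highest, and 7 of the 9 modified libraries lay above both WT libraries. The ranges overlapped, since the first modNNN and the second modNAA library lay between the WT libraries. The control plasmid gave 27.2 and 23.8 CPM, so WT was the lowest group. The log2 fold change was 1.26 (SE 0.31, edgeR adjusted p = 0.0256), a 2.39-fold higher level. DESeq2 called 0 members here, and gave DHH1 a log2 fold change of 1.27 (SE 0.36) with no adjusted p. With only the groups that kept 2 libraries it was 0.63 (adjusted p = 0.506), and it missed the threshold without the first control library (0.0554), either WT library (0.115 and 0.125), modHNH (0.0721) or modHTH (0.0699).

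Of the other members, NMD2 came nearest, with a log2 fold change of 0.36 (SE 0.13, edgeR adjusted p = 0.0958). It was 0.13 with the trend on gene span removed from each library and 0.11 with only the groups that kept 2 libraries. Without the first modNNN library, which leaves that group a lone library, it was 0.38. It then passed, but more of all genes were called too than in the main fit. LSM1 gave 0.27 (SE 0.13) and UPF3 −0.26 (SE 0.15), with edgeR adjusted p-values of 0.187 and 0.274. UPF3 was below both WT libraries in 6 of 9 modified libraries, at 117 to 162 CPM (median 125) against 143 and 167 CPM in WT. The remaining 6 members gave −0.03 (EDC3) to 0.37 (DCP1), with edgeR adjusted p-values of 0.405 to 0.879.

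**Figure D2:**
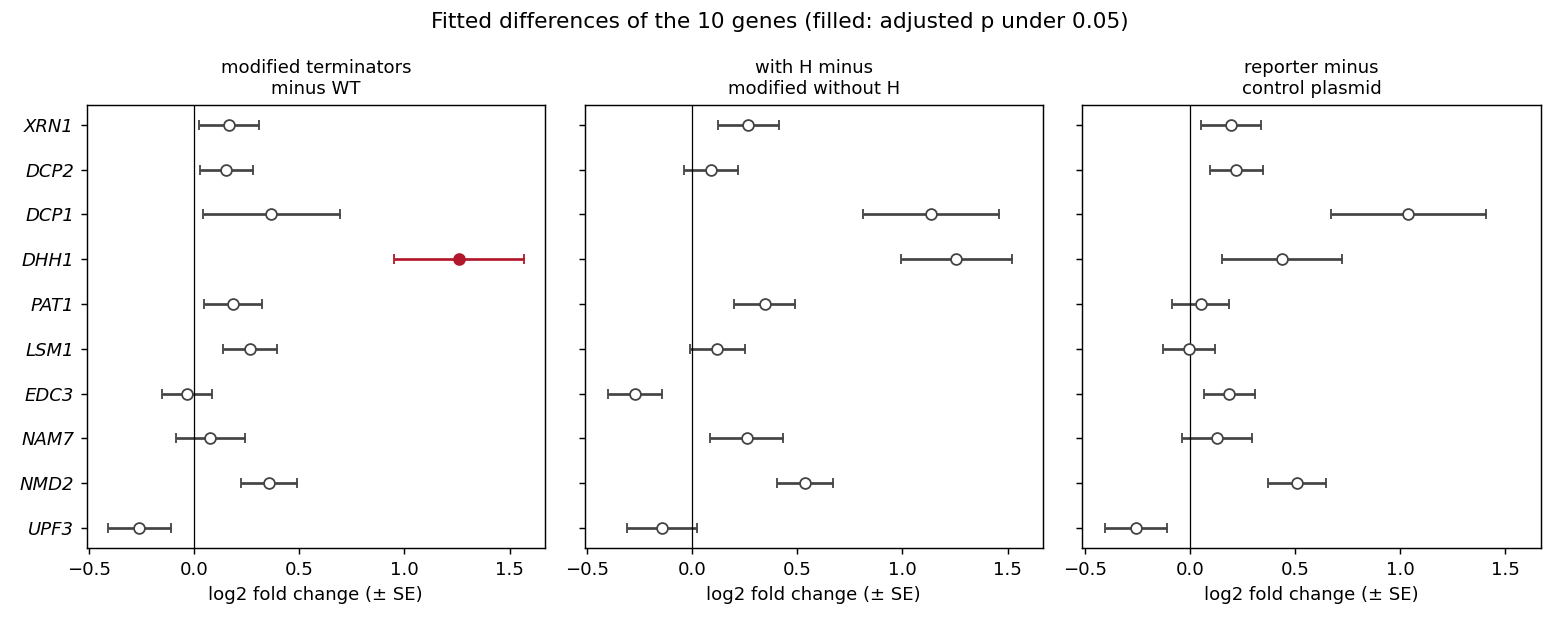
Log2 fold change (horizontal axis) of the 10 genes (vertical axis) in 3 comparisons, with bars of 1 SE; a filled point has an adjusted p under 0.05. Only DHH1 in modified terminators against WT is filled, and EDC3 and UPF3 lie below 0 in the left and middle panels.

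The third comparison set the 2 terminators with H against the 4 modified terminators without it. None of the members was called. DESeq2 called 0, but it gave DHH1 (1.27, SE 0.34) and DCP1 (1.15, SE 0.45) no adjusted p and could not call them. In edgeR 0 of 10 were called, beside 0.019% of all genes. At an unadjusted p under 0.05 there were 5, with 4 higher (DHH1, NMD2, DCP1 and PAT1) and 1 lower (EDC3), beside 20.5% of all genes in either direction, 10.9% higher and 9.59% lower. Of the 10, 8 lay above 0, beside 48% of all genes. The 2 libraries with H lay above all 7 without it for 5 of 10 members (XRN1, DCP1, DHH1, PAT1 and NMD2), beside 11.9% of all genes, and below all 7 for 0, beside 11.1%. Each group with H is a lone library, so this is a count over 2 libraries.

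By role, the exonuclease gene XRN1 had 479.7 CPM in modHTH and 515 CPM in modHNH. Without H it had 471 CPM in modNGG, 453 and 380.4 in modNAA, 453 and 358 in modNTN and 309.7 and 417 CPM in modNNN. The modNGG library, the highest without H, lay just under modHTH. The log2 fold change was 0.27 (SE 0.15, edgeR adjusted p = 0.304). It was −0.0075 with the trend on gene span removed and 0.08 with separate library sizes for tx0 rows. XRN1 has the longest span of the 10 (4587 nt), and it is a tx0 row.

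The decapping enzyme is encoded by DCP1 and DCP2, whose values were not tested against each other. DCP1, the activating subunit, had 23.9 CPM in modHTH (27 reads) and 28.0 CPM in modHNH (36 reads), against 6.93 to 19.5 CPM in the 7 libraries without H (median 8.96). The log2 fold change was 1.14 (SE 0.32, unadjusted p = 0.00257, edgeR adjusted p = 0.0827). Without the second modNNN library, which leaves that group a lone library, it gave 1.37 and passed. It also passed without modNGG (1.32, edgeR adjusted p = 0.029). Many more of all genes were called in both fits, 344 of them without modNGG beside 1 in the main fit. DCP1 did not pass with any other single library left out, and gave 1.02 without modHNH and 1.25 without modHTH. DCP2, which holds the catalytic site, had 367 CPM in modHTH and 338 CPM in modHNH, against 305 to 377 CPM without H (median 315). Its libraries overlapped, and the log2 fold change was 0.09 (SE 0.13, edgeR adjusted p = 0.717).

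Among the activators of decapping, DHH1 gave 1.26 (SE 0.26, unadjusted p = 0.000166, edgeR adjusted p = 0.0725), with 68.3 and 74.8 CPM in modHTH and modHNH against 15.9 to 47.0 CPM (median 22.7) in the 7 libraries without H. It lay just outside the threshold and moved across it with library totals (adjusted p = 0.0481), with no filter on low counts (0.0362) and without either WT library (0.0413 and 0.0309). It also passed without either modNNN library (log2 fold changes 1.13 and 1.45) or the first modNAA library (1.43), each leaving its group a lone library. Without modNGG it passed too (edgeR adjusted p = 0.0165). More of all genes were called in each of these fits, 344 of them without modNGG beside 1 in the main fit. DHH1 missed the threshold without either control library, either modNTN library, the second modNAA library, modHNH (log2 fold change 1.19) or modHTH (1.32). PAT1, the scaffold that binds the Lsm ring, had 148 and 140.2 CPM against 90.7 to 128 CPM (median 114), a log2 fold change of 0.35 (SE 0.14, edgeR adjusted p = 0.191). LSM1 overlapped between the sets, at 242 and 230.5 CPM against 183 to 255 CPM (log2 fold change 0.12, SE 0.13, edgeR adjusted p = 0.623).

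EDC3, a scaffold that stimulates Dcp2, was the activator with a value below 0. It had 176 CPM in modHTH and 214 CPM in modHNH, against 208 to 246 CPM (median 239.7) without H. The modHTH library was the lowest of all 13 and modHNH lay within the range without H. The log2 fold change was −0.27 (SE 0.13, unadjusted p = 0.0498, edgeR adjusted p = 0.243), with −0.12 without modHTH and −0.41 without modHNH.

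The 3 NMD genes had values on both sides of 0, and none was called. NMD2 had 197 CPM in modHTH and 195 CPM in modHNH, then 157 CPM in modNGG, 142 and 129 in modNAA, 132 and 118 in modNTN and 110.1 and 139 CPM in modNNN. The 3 lone libraries were the top 3, and the groups with 2 libraries overlapped each other. The log2 fold change was 0.54 (SE 0.13, unadjusted p = 0.000845, edgeR adjusted p = 0.0725). It was 0.33 (edgeR adjusted p = 0.186) with the trend on gene span removed. Without the second modNNN library, which leaves that group a lone library, it was 0.58 and passed. It also passed without modNGG (0.61, edgeR adjusted p = 0.0235). As said for DCP1, many more of all genes were called in both fits. NMD2 did not pass with any other single library left out, and gave 0.54 without modHNH and 0.53 without modHTH. NAM7, which encodes the NMD helicase, had 100.2 CPM in modHTH but 75.5 CPM in modHNH, against 51.1 to 89.2 CPM (median 73.3) without H, and a log2 fold change of 0.26 (SE 0.17, edgeR adjusted p = 0.4). That value was 0.06 without modHTH and 0.46 without modHNH. UPF3 had 117 and 125 CPM against 118 to 162 CPM (median 132), with a log2 fold change of −0.14 (SE 0.17, edgeR adjusted p = 0.657).

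The number of NMD2 reads per UPF3 read does not depend on the library size, and was computed after these values had been seen. It was 1.68 in modHTH, 1.55 in modHNH and 1.29 in modNGG. It was 0.876 and 0.834 in modNAA, 1.09 and 0.825 in modNTN and 0.833 and 1.18 in modNNN, against 0.784 and 0.760 in WT and 0.567 and 0.818 in the control. The 3 lone libraries held the 3 highest ratios, and the other modified libraries all lay above both WT libraries. The gene span is 3383 nt for NMD2 and 1164 nt for UPF3.

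**Figure D3:**
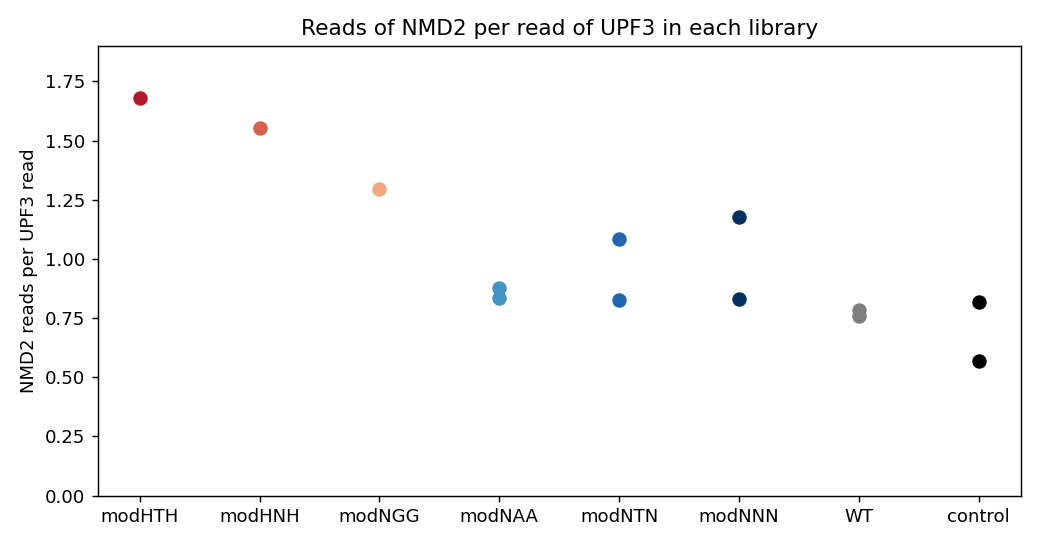
Reads of NMD2 per read of UPF3 (vertical axis, from 0) in each library, by group (horizontal axis). The ratio is 1.68 in modHTH and 1.55 in modHNH and at most 1.29 in the other libraries.

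The fourth comparison set all reporter groups against the control plasmid. Of the 10 members 0 were called in DESeq2, which gave DHH1 and DCP1 no adjusted p here and could not call them. In edgeR 0 were called, beside 0.38% of all genes. At an unadjusted p under 0.05 there were 2, both higher, beside 18.2% of all genes in either direction. They were NMD2 (log2 fold change 0.51, SE 0.14, edgeR adjusted p = 0.0889) and DCP1 (1.04, SE 0.37, edgeR adjusted p = 0.156). In all, 8 of 10 members lay above 0, beside 52.7% of all genes. Without the first modNNN library, which leaves that group a lone library, NMD2 and DCP1 gave 0.51 and 1.09 and passed. Many more of all genes were called in that fit than in the main fit. Neither NMD2 nor DCP1 passed with any other single library left out. With only the groups that kept 2 libraries they gave 0.27 and 0.56 (edgeR adjusted p = 0.517 and 0.652). With the trend on gene span removed they gave 0.36 and 1.11 (edgeR adjusted p = 0.191 for both).

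NMD2 ranged from 110.1 to 197 CPM in the 11 reporter libraries (median 132), against 107.6 and 98.2 CPM in the control. It was the only one of the 10 members whose libraries did not overlap in this comparison, beside 2.6% of all genes higher without overlap and 3.45% lower. The lowest reporter library, the first of modNNN, lay just above the higher control library. DCP1 had 6.93 to 28.0 CPM with the reporter (median 13.0), against 8.25 and 4.77 CPM in the control. The lower control value is 5 reads, whose exact 95% Poisson interval of 1.55 to 11.1 CPM covers counting error only. The 8 remaining members gave −0.26 (UPF3) to 0.44 (DHH1) on the log2 scale, with edgeR adjusted p-values of 0.357 or more. Without the first control library UPF3 turned to 0.12, and with only the groups that kept 2 libraries DHH1 turned to −0.19.

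In WT against the control, DESeq2 called 0 members, but it gave 4497 genes no adjusted p. In edgeR 0 of 10 were called, beside 0.038% of all genes. At an unadjusted p under 0.05 there were 0 as well, beside 8.94% of all genes. The log2 fold changes ran from −0.64 (DHH1, SE 0.39) to 0.72 (DCP1, SE 0.46). NMD2 gave 0.21 (SE 0.17), with 112 and 127 CPM in WT against 107.6 and 98.2 CPM in the control. This comparison shares its control libraries with the one of all reporter groups.

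Terminators with other motifs were then compared with the one that has 3 random inserts. With 1 T motif (modNTN against modNNN) and with 2 A motifs (modNAA against modNNN), 0 of 10 members were called in edgeR and 0 in DESeq2, and 0 had an unadjusted p under 0.05. Over all genes 0% were called in both comparisons, and 1.92% and 6.21% had an unadjusted p under 0.05. The log2 fold changes of the members ran from −0.38 (DCP1) to 0.32 (NAM7) for modNTN and from −0.70 (DCP1) to 0.34 (UPF3) for modNAA. With SEs of 0.15 to 0.46, such values do not show that the members stayed level. For modNGG, a lone library, 0 of 10 were called in edgeR, beside 0% of all genes. DESeq2 called 0 for it, but gave 3510 genes no adjusted p. At an unadjusted p under 0.05 in edgeR, modNGG had 0 members, beside 14.4% of all genes. Its largest value was DHH1 at 0.77 (SE 0.41, edgeR adjusted p = 0.395). Without the second modNNN library DHH1 gave 1.56, but that fit sets a lone library against a lone library. The 3 comparisons share the modNNN libraries.

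Several measures of the libraries moved with the members. The mean log2 deviation of the 10 genes from their own means was 0.37 in modHTH, 0.39 in modHNH and 0.22 in modNGG. It was 0.07 and −0.10 in modNAA, 0.0017 and −0.16 in modNTN and −0.27 and 0.05 in modNNN, against −0.12 and −0.11 in WT and −0.07 and −0.27 in the control. The 3 lone libraries stood highest. Without DHH1 and DCP1 the mean was 0.18 in modHTH, 0.15 in modHNH and 0.11 in modNGG, against −0.07 and −0.04 in WT. It was then 0.07 and 0.05 in modNAA, 0.02 and −0.07 in modNTN, −0.14 and −0.08 in modNNN and −0.02 and −0.17 in the control. The modNGG library thus stood only a little above modNAA.

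The median log2 deviation of the 681 tested tx0 rows was also highest in these 3 libraries, at 0.25 in modHTH, 0.23 in modHNH and 0.13 in modNGG. It was 0.07 and −0.05 in modNAA, 0.07 and −0.03 in modNTN and −0.16 and 0.06 in modNNN, against −0.17 and −0.12 in WT and −0.09 in both control libraries. Below the top 3 the order of the libraries differed between these measures. The slope of log2 deviation per doubling of gene span, over all tested genes with a RefSeq length, was 0.12 in modHTH and modHNH and 0.08 in modNGG. It was 0.03 and −0.02 in modNAA, 0.02 and −0.01 in modNTN and −0.09 and 0.0076 in modNNN, against −0.08 and −0.06 in WT and −0.04 and −0.07 in the control. The 3 tx0 members XRN1, DCP1 and DHH1 thus belong to a class of rows whose median log2 fold change was 0.21 for modified terminators against WT and 0.20 with against without H. When tx0 rows were given library sizes of their own, DHH1 gave 1.02 (adjusted p = 0.0492) in modified terminators against WT and 1.07 (adjusted p = 0.0896) with against without H. With the trend on gene span removed, DHH1 gave 1.25 in both comparisons (adjusted p = 0.0497 and 0.0988). With against without H, XRN1 and NMD2 were lower under that setting, as given above, and DCP1 gave 1.23 (adjusted p = 0.118). For the lone libraries these measures cannot be told apart from the terminator.

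**Figure D4:**
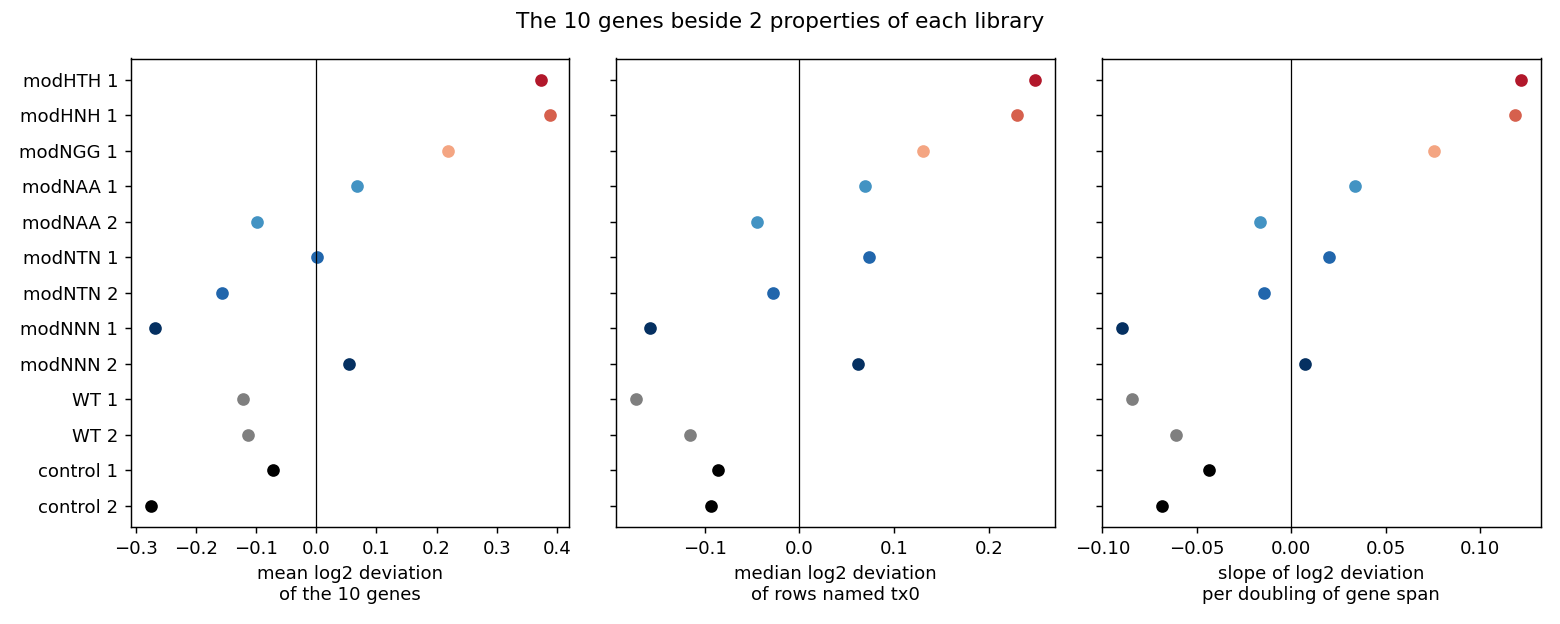
For each library (vertical axis), the mean log2 deviation of the 10 genes (left), the median log2 deviation of tx0 rows (middle) and the slope of log2 deviation per doubling of gene span (right). The modHTH, modHNH and modNGG libraries have the highest values in all 3 panels.

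Other genes of these pathways were taken from 6 lists of 35 genes, of which 34 were tested (CTF13 had too few reads). In modified terminators against WT, 9 of the 34 were called, 6 higher and 3 lower, beside 8.35% of all genes, 4.63% higher and 3.72% lower. These calls depend on most of the libraries. With only the groups that kept 2 libraries 0 of 34 passed. Leaving out single libraries gave 0 without modHTH or the first WT library and 1, EDC1, without modHNH or the first control library. It gave 2 without the second WT or the first modNTN library, 3 without the second control, the second modNTN or the first modNAA library, and 5 without modNGG. Without the second modNAA library or either modNNN library 9 to 11 passed. With the trend on gene span removed 3 passed, LSM5, EDC1 and EDC2, and DESeq2 called 5. In all reporter groups against the control and with against without H, 0 of 34 were called in edgeR, beside 0.38% and 0.019% of all genes. At an unadjusted p under 0.05 there were 6 and 10 of 34, beside 18.2% and 20.5% of all genes, so the first count is at the background.

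The decapping cofactors had 2 of 9 members higher in modified terminators than in WT and 0 lower, beside 4.63% and 3.72% of all genes. EDC1, a small protein that stimulates Dcp1-Dcp2, ranged from 70.0 to 163 CPM in the 9 modified libraries (median 106), against 72.0 and 82.7 CPM in WT (log2 fold change 0.72, SE 0.15, edgeR adjusted p = 0.0198). EDC2, its homologue, had 126 to 183 CPM (median 161), against 114 and 116 CPM in WT (0.49, SE 0.13, edgeR adjusted p = 0.0369). All modified libraries of EDC2 lay above WT, beside 3.44% of all genes, but the control, at 141 and 165 CPM, lay within the modified range. NGR1, which was not called, lay above WT in all as well (129.7 to 163.2 CPM against 121.3 and 125.7 CPM).

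In the Lsm ring, 1 of 6 partners of Lsm1 was higher, beside 4.63% of all genes. It was LSM5, a subunit shared by the cytoplasmic and nuclear rings (121 to 216 CPM, median 164, against 117 and 135 CPM in WT; log2 fold change 0.51, SE 0.15, edgeR adjusted p = 0.0444). Of 3 genes of nuclear 5′-3′ decay, RAT1, the nuclear counterpart of XRN1, was higher, at 169.7 to 388 CPM (median 257) against 201 and 212 CPM in WT (0.49, SE 0.14, edgeR adjusted p = 0.0422). Its modified libraries reached below WT as well as above it. The NMD accessory factors were not called: EBS1 gave 0.50 (SE 0.30) and NMD4 −0.49 (SE 0.20), with edgeR adjusted p-values of 0.299 and 0.112.

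The list for the Ski complex, which feeds the exosome for 3′-5′ decay, had 1 of 4 genes higher and 1 lower, beside the same 4.63% and 3.72%. SKI7, which bridges Ski and exosome, had 43.6 to 67.3 CPM against 35.6 and 41.5 CPM in WT (log2 fold change 0.55, SE 0.16, edgeR adjusted p = 0.0424). SKI8, a WD-repeat subunit of the complex, had 72.4 to 94.2 CPM against 109 and 128 CPM in WT (−0.52, SE 0.13, edgeR adjusted p = 0.0282). All modified libraries lay above WT for SKI7 and below it for SKI8, beside 3.44% of all genes above and 4.42% below. SKI2 lay above WT in all as well (124.8 to 181.8 CPM against 110.7 and 123.1 CPM, edgeR adjusted p = 0.0886), while SKI3 overlapped. The control had 38.4 and 45.8 CPM for SKI7, and 93.4 and 105.1 CPM for SKI8, below WT too. The genes of this list thus lay on both sides of WT.

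The last list held transcripts that are known to be degraded through Edc3 or NMD, of which 10 were tested, 1 was higher and 2 were lower, beside 4.63% and 3.72% of all genes. RPS28B, whose mRNA is decapped with the help of Edc3, had 445 to 912 CPM (median 650.5) in modified terminators, against 835 and 950.1 CPM in WT (log2 fold change −0.57, SE 0.14, edgeR adjusted p = 0.0254). The control, at 549 and 559 CPM, lay below WT too. CPA1, whose upstream reading frame makes it an NMD substrate, gave −0.46 (SE 0.14, edgeR adjusted p = 0.0462), and SPT10, an NMD substrate through its start codon context, gave 0.84 (SE 0.24, edgeR adjusted p = 0.0429). CPA1 had 110 to 235.9 CPM in modified terminators against 207.2 and 231.5 CPM in WT, and SPT10 33.25 to 73.6 CPM against 25.84 and 38.58 CPM. Both overlapped WT, and the control of CPA1 (145.9 and 170 CPM) lay below WT too. The fitted values of CPA1 and SPT10, both NMD substrates, thus had opposite signs.

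**Figure D5:**
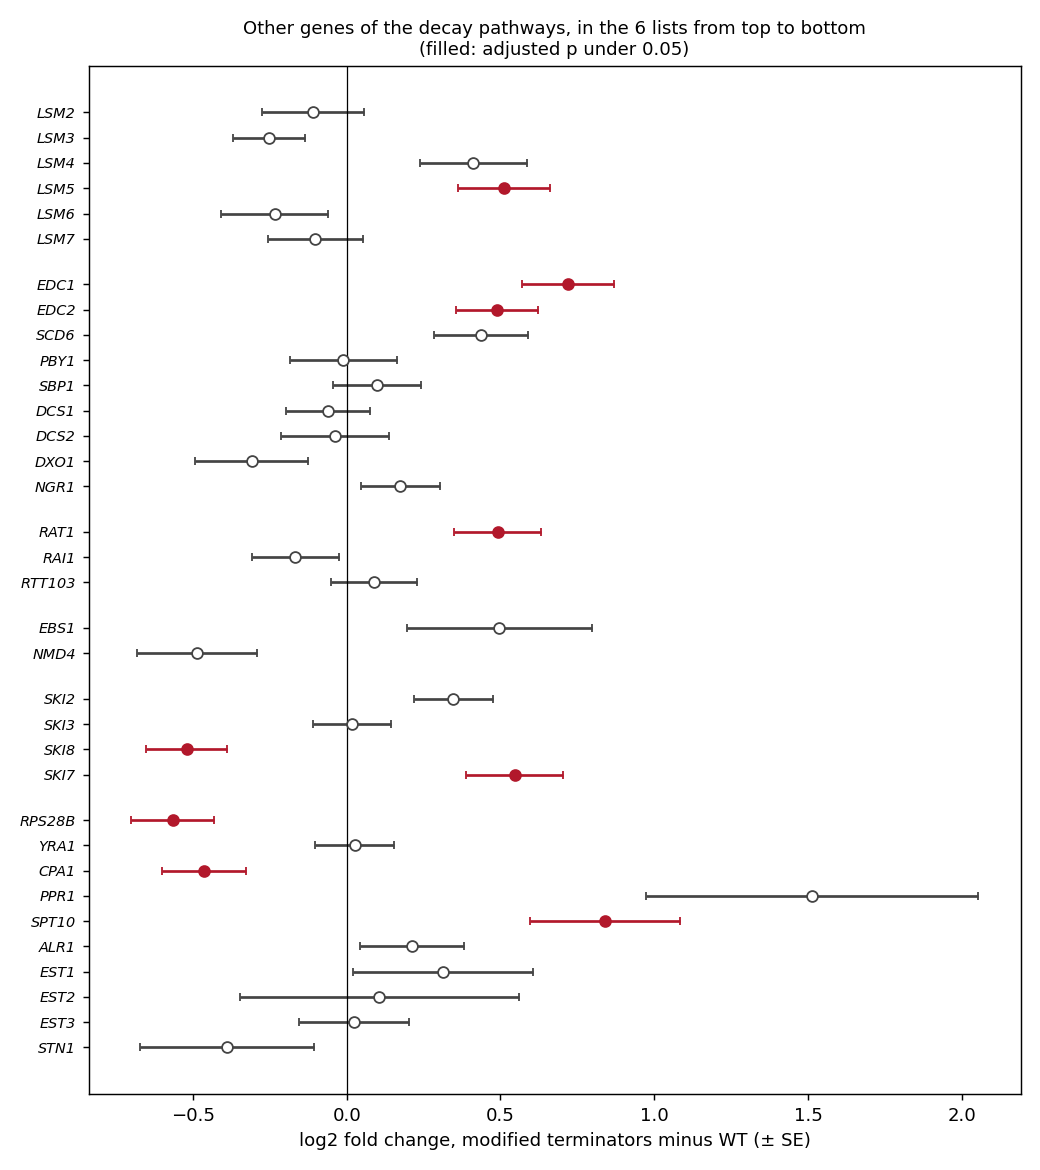
Log2 fold change (horizontal axis, modified terminators minus WT, with bars of 1 SE) of 34 other genes of the decay pathways (vertical axis, 6 lists separated by gaps); filled points have an adjusted p under 0.05. Of the 9 filled points 6 lie above 0 and 3 (SKI8, RPS28B and CPA1) below.

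The host genes with profiles most like XRN1 were DNF3, UBP12 and NUM1, with root mean square differences of 0.0855, 0.0922 and 0.0923 between centred log2 CPM over the 13 libraries. Their gene spans are 4971, 3765 and 8247 nt, so all 3 are long, and DNF3 and NUM1 are tx0 rows like XRN1. For the mean profile of NMD2, NAM7 and UPF3 the closest were MLP2 (0.067), IMH1 (0.0829) and ESF1 (0.0837). Their gene spans are 5040, 2736 and 1887 nt, and MLP2 and IMH1 are tx0 rows. That mean joins unlike profiles: in modHTH and modHNH the log2 deviations were 0.57 and 0.55 for NMD2 but −0.24 and −0.14 for UPF3.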

How the data were processed

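The deposited gene table holds read counts per transcript row, which the authors left unnormalized. The submitters' processing notes name HISAT2, featureCounts, cutadapt, SAMtools, bedtools, FastQC and MultiQC, and the build sacCer3 (R64). The sources used here give neither versions nor settings. The annotation deposited by the authors gives other values, transcript start and end (rtracklayer 1.42.1, per the file headers). RefSeq named 5550 of 5696 host rows and gave their gene spans, introns included.

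Host genes of the 13 libraries with at least 1000 reads were fitted in edgeR 4.0.16 (TMM, filterByExpr, glmQLFit, glmQLFTest; R 4.3.3), which left 5268 genes. The SE is the log2 fold change divided by the root of its F value. Log2 CPM used a prior of 0.5 reads. The 2 reporter rows of the table were left out of library sizes. DESeq2 1.42.0 and other settings served as alternatives. The fit was tested on simulated data with the same spread for every gene and no trend on gene span. That test does not cover the trends between libraries described above.

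The members and lists were chosen with earlier results of these data known. The named genes were the members, the called genes of each list (up to 4, or else the 2 with the smallest p for the reporter) and 3 genes most like XRN1 and the NMD genes. The setting with tx0 library sizes, the pathway counts under each setting, the means without DHH1 and DCP1, and the settings for members in modified terminators against WT were added after seeing the data.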

Additional observations from a re-analysis of the deposited data

How the results depend on the processing

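Counts of calls moved more than sizes. With all 16 libraries, near-empty ones included, edgeR called 2 members (288 genes) for reporter against control, 41 genes for WT against control, 934 for modified against WT, 2 for modNAA and 84 for modNGG against modNNN, 3 members (397 genes) with against without H and 3 members (915 genes) over the 8 groups. DESeq2 called 60, 15, 0 members (276 genes), 0, 1, 38 and 1 member (230 genes) in the same order, and 5 pathway genes for modified against WT; it gave DHH1 no adjusted p there. With no filter the counts were 61 genes (reporter), 4 (WT against control), 1 member and 11 genes (H), and 1 member and 73 genes (8 groups). With library totals they were 1 gene (WT against control), 1 member and 11 genes (H), and 1 member and 53 genes (8 groups), and with RLE factors or separate tx0 sizes 0 genes (H). With the length trend removed they were 11 genes (reporter), 112 genes and 3 pathway genes (modified against WT) and 3 genes (H). With only groups that kept 2 libraries they were 0 genes (reporter), and 0 members, 1 gene and 0 pathway genes (modified against WT). The main counts were 20 genes (reporter), 2 (WT against control), 440 and 1 member (modified against WT), 1 (H) and 1 (8 groups).

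Replicate numbers were not used as pairs in the main fit. Same-numbered libraries of 2 groups deviated with correlations of −0.292 to 0.319, above 0.1 in 4 of 10 pairs, so a shared deviation differed from pair to pair. The libraries kept for modHTH, modHNH and modNGG are all the first of their group. In these groups the replicate number cannot be told apart from the terminator. With a replicate block 68 genes (reporter), 6 (WT against control), 679 (modified against WT), 11 (H) and 4 (8 groups) were called, and DHH1 in modified against WT gave 1.23.

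With each library left out in turn, members called ranged from 0 to 2 (reporter and modified against WT), 0 to 1 (modNGG) and 0 to 3 (H and 8 groups). Genes called ranged from 0 to 301 (reporter), 1 to 5 (WT against control), 1 to 1073 (modified against WT), 0 to 1 (modNTN), 0 to 7 (modNAA), 0 to 357 (modNGG), 0 to 559 (H) and 0 to 646 (8 groups), and pathway genes from 0 to 11. The members' direction turned only in values that did not pass. For reporter against control, DHH1 gave −0.19 and PAT1 −0.11 with only groups of 2 libraries. With the length trend removed PAT1 gave −0.062, LSM1 0.11 and NAM7 −0.0064, and LSM1 gave 0.052 with library totals. Leaving out single libraries gave PAT1 −0.018 to 0.10, LSM1 −0.050 to 0.032, NAM7 −0.034 to 0.24 and UPF3 −0.52 to 0.12. For modified against WT, the length trend gave XRN1 −0.15, DCP2 −0.034 and NAM7 −0.11, tx0 sizes gave XRN1 −0.074 and EDC3 0.0011, and groups of 2 libraries gave DCP1 −0.19, EDC3 0.053 and NAM7 −0.0038. EDC3 ranged from −0.059 to 0.035 without a library. With against without H, the length trend gave XRN1 −0.0075 and DCP2 −0.083. The causes were not tested. The mean deviation without DHH1 and DCP1 was 0.15 in modHNH and 0.18 in modHTH; depth limits these 2 genes most.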

Other observations

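Genes that overlap members were read from the same libraries and were chosen by position alone. MTC1, which overlaps LSM1 on the same strand, ranged from 197 to 304 CPM and gave a log2 fold change of 0.16 (SE 0.14) in modified terminators against WT, where LSM1 gave 0.27. SEC14, a phosphatidylinositol transfer protein gene that overlaps the end of NAM7 on the opposite strand, gave −0.45 (SE 0.14, edgeR adjusted p = 0.051), where NAM7 gave 0.08. PTC7, a phosphatase gene that overlaps NMD2 by 121 nt on the opposite strand, gave −0.48 (SE 0.16, edgeR adjusted p = 0.0588), where NMD2 gave 0.36. BUD13 shares 15 nt with XRN1 and gave 0.14 (SE 0.18, edgeR adjusted p = 0.664). FUB1, which overlaps PAT1, gave −0.07 (SE 0.14), where PAT1 gave 0.18. NCS2, which overlaps DCP2, gave −0.20 (SE 0.23), where DCP2 gave 0.15.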
